A study of Mus musculus with 9 samples.

Results

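The genes described here are 10 transcriptional outputs and feedback inhibitors of FGF-ERK signalling, taken by symbol from the 52264 rows of the count table: the phosphatase genes Dusp1, Dusp4, Dusp5 and Dusp6, the inhibitor genes Spry2, Spry4, Spred1 and Spred2, and the ETS factor genes Etv4 and Etv5. All 10 were in the table and passed the filter on low counts, as did 15366 rows in all. They were followed in 9 RNA sequencing libraries of mouse embryonic stem cells with the genotype beta-catenin-/-, which all groups share, with 3 libraries each of untreated control cells, cells given BRD0705 and cells given CHIR for 30 min. BRD0705 is an inhibitor selective for GSK3α, and CHIR (CHIR-99021) inhibits both GSK3α and GSK3β. Before the experiment the cells were expanded on feeder-treated dishes with 3 µM CHIR, 1 µM PD03, a MEK inhibitor, and 40 ng/ml LIF, and were moved to N2B27 medium overnight. The labels give no doses for the 30 min treatments, name no vehicle for the control, and do not say whether any additive stayed in the overnight medium, or whether the line is 1 clone. Nothing in them says that replicates came from separate cultures, so the p-values measure the spread between these libraries, which may be technical.

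In embryonic stem cells, FGF4 acts through FGF receptors, Ras, Raf and MEK to activate the kinase ERK, which pushes cells out of the naive state. Active ERK induces its own antagonists. DUSP phosphatases remove the activating phosphates from ERK and related kinases, Sprouty and Spred proteins act upstream at the receptor, Ras and Raf, and the ETS factors ETV4 and ETV5 carry part of the transcriptional output. Expression of these genes is widely used as a readout of ERK activity, and MEK inhibition lowers them.

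Sequences upstream of the start are shown for the members with a motif match and for Dusp6, the usual readout gene of ERK activity. RefSeq promoter windows were on GRCm38.p6, the assembly behind mm10, the build named in the submitters' processing notes. Windows of 7 of the 10 members were searched: Dusp1, Dusp5, Dusp6, Spry2, Spred1, Spred2 and Etv5, the last with more than 1 start. Spry4 was left out of the search, and no window was found for Dusp4 or Etv4. The 250 bases before each start were searched on both strands for 5 motifs: the cAMP response element letters TGACGTC, the AP-1 letters TGANTCA, the ETS letters CCGGAAG, the TCF letters ATCAAAG, and the CArG box bound by serum response factor. Matches are in capitals, and each sequence reads 5′ to 3′ on the strand of its gene.
Dusp1 (chr17:26508473-26508722, minus strand): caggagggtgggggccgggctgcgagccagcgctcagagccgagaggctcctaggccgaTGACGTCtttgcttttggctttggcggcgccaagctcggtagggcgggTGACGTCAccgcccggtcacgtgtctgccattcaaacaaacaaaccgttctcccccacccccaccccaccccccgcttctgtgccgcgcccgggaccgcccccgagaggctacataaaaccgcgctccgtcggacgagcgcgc
Dusp5 (chr19:53528895-53529144, plus strand): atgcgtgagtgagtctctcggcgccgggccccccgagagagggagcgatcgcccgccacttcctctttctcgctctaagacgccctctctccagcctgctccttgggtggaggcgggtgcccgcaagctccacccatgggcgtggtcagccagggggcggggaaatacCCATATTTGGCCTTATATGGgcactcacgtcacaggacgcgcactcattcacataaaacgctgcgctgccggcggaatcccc
Spred2 (chr11:19924192-19924441, plus strand): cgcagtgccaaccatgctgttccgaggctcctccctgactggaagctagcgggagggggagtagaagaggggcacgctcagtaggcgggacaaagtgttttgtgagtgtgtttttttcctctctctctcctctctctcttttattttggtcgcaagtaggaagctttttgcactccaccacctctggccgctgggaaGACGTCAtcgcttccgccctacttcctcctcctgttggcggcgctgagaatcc
Dusp6 (chr10:99262981-99263230, plus strand): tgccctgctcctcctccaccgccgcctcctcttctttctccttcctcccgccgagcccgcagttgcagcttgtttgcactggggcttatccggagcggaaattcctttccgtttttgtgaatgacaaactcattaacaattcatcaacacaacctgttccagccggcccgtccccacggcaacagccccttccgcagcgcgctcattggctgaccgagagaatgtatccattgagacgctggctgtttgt
The Dusp1 window held a cAMP response element match from base -191 to -185 before the start. A second one lay from -143 to -137, where the letters also match on the other strand, 1 base further on. Spred2 held 1 such match, on the opposite strand, from -53 to -47, and Dusp5 held a pair of adjoining CArG boxes, from -82 to -73 and from -72 to -63. Each CArG box matches on both strands. None of the 5 motifs was found in the other windows, Dusp6 included. Over all 32851 windows in the RefSeq table, 2.78% held the cAMP response element letters, 6.75% the AP-1 letters, 6.91% the ETS letters, 3.21% the TCF letters and 1.47% a CArG box. A match describes letters only.

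Libraries held 17359422 to 20773337 counts, and replicates of a group differed by more than sampling noise, the chi-square over its degrees of freedom being 3.40 to 8.05. Levels are given as CPM, the usual scaling of counts to a common library total, here after TMM adjustment. The 8 stem cell markers, Pou5f1, Sox2 and Nanog among them, were all present, at a summed 3614 to 3929 CPM per library. Of 5 primitive endoderm markers 3 passed the filter, and the 5 together stood at 7.22 to 10.2 CPM, with Foxa2 at 0 counts in most libraries. All 10 fibroblast markers were present in every library, at a summed 2134 to 2577 CPM in control, 2725 to 2800 with BRD0705 and 2436 to 2907 with CHIR. All 10 had fold changes above 0 against control under each inhibitor, with medians of 0.26 for BRD0705 and 0.19 for CHIR on the log2 scale. In each, 1 of the 10, Col1a1, passed the test, where 1.22% of all tested genes passed with BRD0705 and 6.3% with CHIR. An unadjusted p was under 0.05 for 7 of the 10 with BRD0705 and 6 with CHIR. Of all 15366 tested genes, 2436 and 3148 had such a p. The groups did not overlap for 8 of the 10 with BRD0705, where they did not for 20.2% of all tested genes, and for 1 of the 10 with CHIR, where they did not for 25.1%. In such bulk libraries a change in the number of cells of a type and a change in RNA per cell cannot be told apart.

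The members covered a wide range of levels when counts were set against merged exon length. Etv5 was the most abundant, at 77.6 ± 3.24 CPM per kb (SD, n = 9), followed by Etv4 at 46.9 ± 2.06 and Dusp1 at 30.9 ± 4.60 CPM per kb. Etv5 lay at percentile 98.6 of all tested genes by mean log2 CPM, which takes no account of length. Next came Spred2 at 16.8 ± 0.925 CPM per kb, Spry4 at 11.2 ± 1.41 and Dusp6 at 10.3 ± 0.652. The lowest group was Spry2 at 5.57 ± 0.337 CPM per kb, Spred1 at 5.50 ± 0.588, Dusp5 at 5.09 ± 0.473 and Dusp4 at 5.02 ± 0.442. Neighbours in this order were apart in every library from Etv5 down to Spred2 and Spry4, while the ranges of Spry4 and Dusp6 overlapped, as did those of each adjoining pair from Spry2 to Dusp4. Across all 9 libraries the coefficient of variation was 14.9% for Dusp1, 12.7% for Spry4 and 10.7% for Spred1, and 4.18 to 9.30% for the other members.

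**Figure D1:**
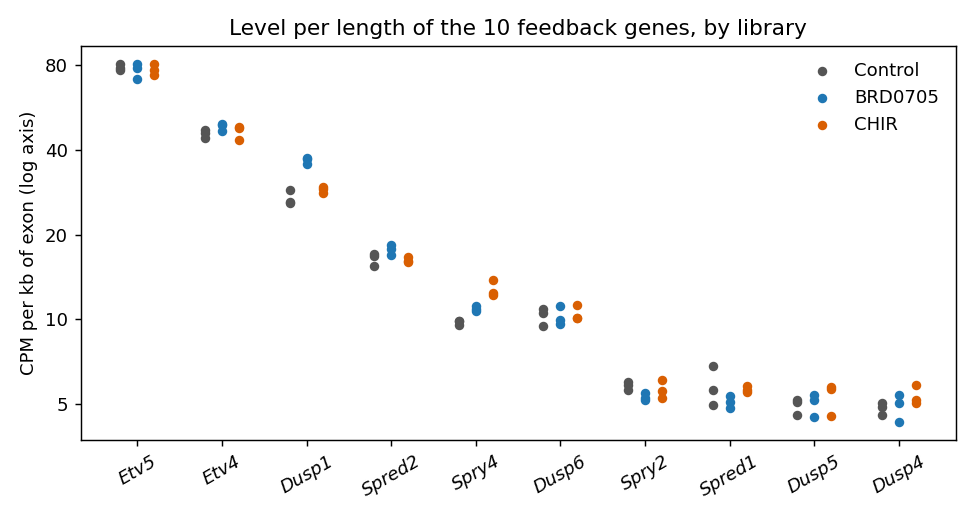
Level of each member per kb of merged exon length (CPM per kb, log axis) in each of the 9 libraries, coloured by group. Etv5 stood highest at 71.6 to 81.0 CPM per kb and Dusp4 lowest at 4.31 to 5.85.

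BRD0705 was compared with control to ask whether 30 min of GSK3α inhibition moved the ERK feedback genes. Dusp1 rose and was the one member to pass the test, 1 of 10, where 1.22% of all tested genes passed, 0.69% as higher and 0.534% as lower. The share of members rests on a single gene. The groups' CPM values did not overlap for 3 of the 10 members, Dusp1 and Spry4 higher and Spry2 lower, against 20.2% of all tested genes, 9.83% higher and 10.4% lower. The median log2 fold change of the 10 was 0.02, and that of all tested genes -0.00380.

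Dusp1 encodes a nuclear phosphatase that acts on ERK, p38 and JNK and is itself an immediate early gene. In replicates 1 to 3 it stood at 96.0, 86.3 and 87.0 CPM in control, 123, 119 and 125 CPM with BRD0705, and 96.8, 93.8 and 98.3 CPM with CHIR. All BRD0705 libraries lay above all others, while control and CHIR overlapped. Control averaged 89.8 ± 5.42 CPM, BRD0705 122 ± 3.22 CPM and CHIR 96.3 ± 2.28 CPM (SD, n = 3 each). The rise with BRD0705 was 1.36-fold, or 0.45 ± 0.06 on the log2 scale (SE), with a 95% interval of 1.26- to 1.48-fold and an adjusted p of 0.00127 by edgeR's quasi-likelihood test. It passed in all 9 fits that omit a library and in 19 of 22 alternatives, whose adjusted p ran from 2.32e-10 to 0.196. With CHIR the ratio to control was 1.07-fold, with a 95% interval of 0.988 to 1.16 and an edgeR adjusted p of 0.337. Dusp1 lies on GRCm38 chromosome 17, from 26505591 to 26508472 on the minus strand. It shares 38 exon bases with Ergic1 on the other strand, which had 3739 to 4705 counts per library, and whether counting used strand is not given in the sources used here.

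The rise of Dusp1 was set beside the fibroblast markers, which were also higher with BRD0705. With their mean log2 CPM as a covariate, the fold change against control was 1.33-fold. The edgeR adjusted p went from 0.00127 to 0.169, with an unadjusted p of 0.000179. Under that covariate 0 of all tested genes passed for BRD0705 against control, with 1202 at an unadjusted p under 0.05. The marker sums were 2577, 2134 and 2213 CPM in control replicates 1 to 3, 2800, 2725 and 2732 CPM in the BRD0705 replicates, and 2712, 2907 and 2436 CPM in the CHIR replicates. All BRD0705 sums lay above all control sums, so the covariate and the treatment cannot be fully told apart in this comparison. Beyond that covariate, the part of the fibroblast signal in the Dusp1 result was not tested. With limma on the deposited normalized values, the Dusp1 adjusted p was 0.188 with a pseudocount of 1 and 0.196 with 0.1, settings under which 0 of all tested genes passed, with 2005 and 2002 genes at an unadjusted p under 0.05. The libraries also differed in how counts moved with transcript GC content, with a Spearman correlation across genes of 0.0606 to 0.271 in BRD0705, -0.300 to 0.197 in control and -0.119 to -0.0606 in CHIR libraries. After correction for GC content and length the Dusp1 change was 1.34-fold, with an edgeR adjusted p of 0.000371.

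The other phosphatase genes did not pass the test with either inhibitor. Dusp6 (chromosome 10, 99263231 to 99267489, plus strand) encodes a cytoplasmic phosphatase specific for ERK. It stood at 32.1, 36.9 and 35.7 CPM in control, 33.7, 32.5 and 37.9 CPM with BRD0705, and 38.1, 34.4 and 34.1 CPM with CHIR. The groups overlapped throughout, with means of 34.9 ± 2.47, 34.7 ± 2.82 and 35.5 ± 2.22 CPM (SD, n = 3 each). The 95% interval of its fold change was 0.893 to 1.11 for BRD0705 and 0.913 to 1.14 for CHIR against control. On the other strand Dusp6 shares 94 exon bases with Gm34921, which had at most 2 counts in any library, and 685 with Gm56965, which is not a row of the count table used here. In the same way Spry2 shares 564 exon bases with Gm62623, Etv4 312 with Gm39392 and Etv5 636 with Gm59753, none of them a row of that table, so their reads could not be checked.

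Dusp4 (chromosome 8, 34807610 to 34819894, plus strand) and Dusp5 (chromosome 19, 53529145 to 53541809, plus strand) encode nuclear phosphatases, DUSP5 being specific for ERK. Dusp4 was at 14.0, 14.5 and 13.1 CPM in control, 12.4, 14.5 and 15.4 CPM with BRD0705, and 14.9, 14.4 and 16.8 CPM with CHIR. Dusp5 was at 12.6, 12.8 and 11.3 CPM in control, 11.2, 12.8 and 13.3 CPM with BRD0705, and 14.1, 14.3 and 11.2 CPM with CHIR. The groups of both genes overlapped in each comparison. With 205 to 325 counts per library these were the members with the fewest reads. The 95% intervals of the fold change for Dusp4 and Dusp5 in turn reached from 0.883 to 1.17 and from 0.868 to 1.18 with BRD0705, and from 0.962 to 1.27 and from 0.921 to 1.25 with CHIR. Dusp5 shares 555 exon bases with Gm50394 on the other strand, which had at most 3 counts in any library.

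**Figure D2:**
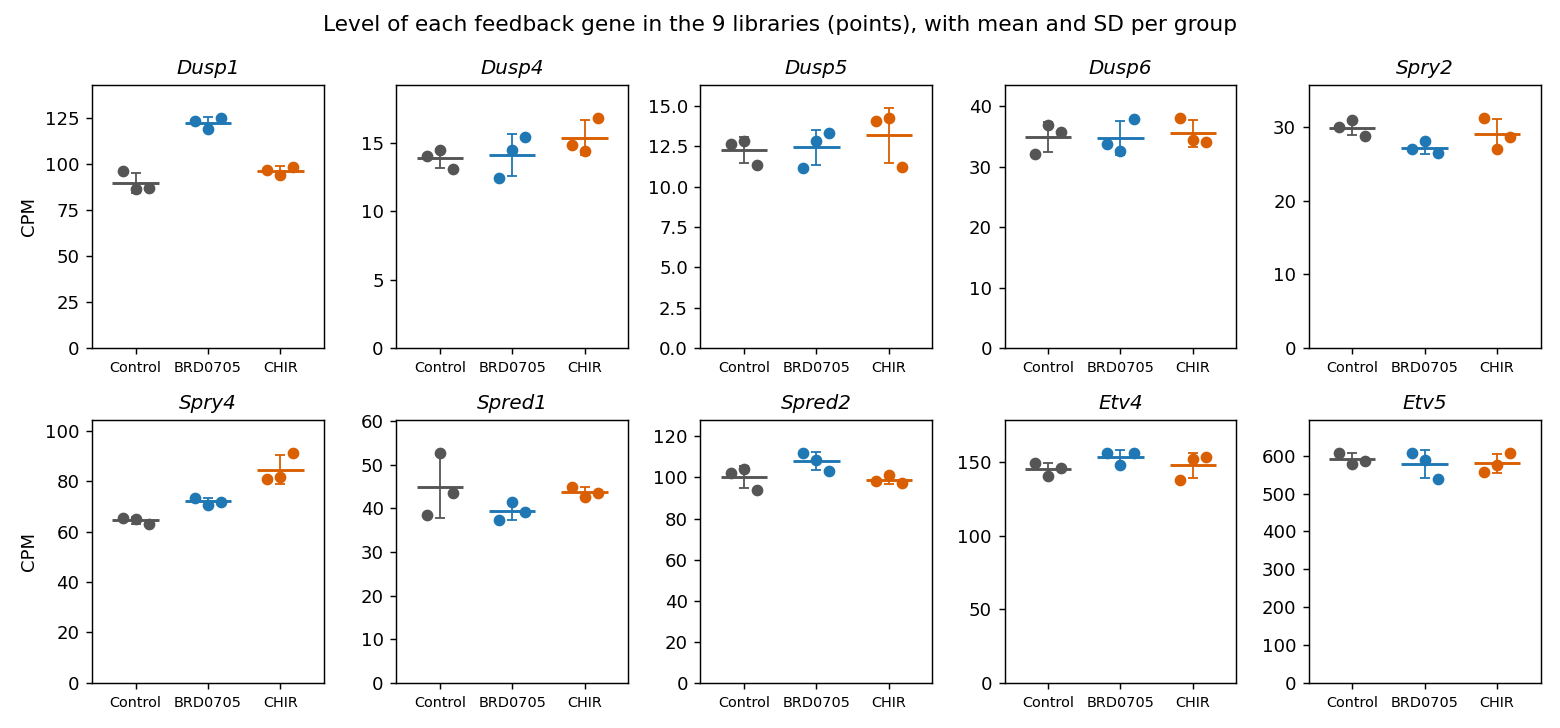
CPM of each member in the 3 control, 3 BRD0705 and 3 CHIR libraries (points), with the group mean (line) and SD (bar); each axis starts at 0. Dusp1 was at 119 to 125 CPM with BRD0705 and at most 98.3 CPM elsewhere, and Spry4 was at 80.7 to 91.3 CPM with CHIR and at most 73.4 CPM elsewhere.

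CHIR was compared with control to ask the same of inhibiting both GSK3 enzymes. Spry4 rose and was the only member to pass, 1 of 10, where 6.3% of all tested genes passed, 2.52% as higher and 3.78% as lower. It was also the single member of the 10 whose groups did not overlap, against 25.1% of all tested genes, 10.9% higher and 14.1% lower. The median log2 fold change of the 10 was 0.03, against -0.00907 for all tested genes.

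Spry4 encodes a Sprouty protein, an inhibitor of receptor-driven Ras and Raf activation that is induced by FGF. It stood at 65.3, 65.1 and 63.0 CPM in control, 73.4, 70.4 and 71.9 CPM with BRD0705, and 80.7, 81.5 and 91.3 CPM with CHIR. The 3 groups did not overlap, with BRD0705 between the others. The means were 64.4 ± 1.28, 71.9 ± 1.51 and 84.5 ± 5.87 CPM (SD, n = 3 each). The rise with CHIR was 1.31-fold, or 0.39 ± 0.06 on the log2 scale (SE), with a 95% interval of 1.20- to 1.43-fold and an edgeR adjusted p of 0.000615. For BRD0705 against control the value was 1.12-fold, with a 95% interval of 1.02 to 1.22, an unadjusted p of 0.0160 and an edgeR adjusted p of 0.197, so the difference did not pass. The CHIR difference passed in all 22 alternative fits, the one with the fibroblast marker covariate included. Beyond that covariate, the part of the fibroblast signal in the Spry4 result was not tested.

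Spry2 (chromosome 14, 105891947 to 105896819, minus strand), the other Sprouty gene among the members, did not pass in any comparison. It was at 30.0, 30.9 and 28.8 CPM in control, 27.0, 28.0 and 26.5 CPM with BRD0705, and 31.3, 27.1 and 28.7 CPM with CHIR. The BRD0705 libraries lay below all control libraries, at a log2 difference of -0.14 ± 0.07 (SE), a 95% interval of 0.821 to 1.00 for the fold change, and an edgeR adjusted p of 0.332. The edgeR adjusted p for CHIR was 0.794.

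Spred1 (chromosome 2, 117121071 to 117182279, plus strand) and Spred2 (chromosome 11, 19924442 to 20024026, plus strand) encode Sprouty-related proteins that bind Ras and Raf, and SPRED1 recruits neurofibromin, which switches Ras off. Spred1 was at 38.6, 52.8 and 43.5 CPM in control, 37.4, 41.4 and 39.3 CPM with BRD0705, and 44.9, 42.7 and 43.6 CPM with CHIR. Relative to their mean its controls spread more than those of any other member, with replicate 2 the highest. The fold change against control was -0.19 ± 0.09 on the log2 scale for BRD0705 (SE; edgeR adjusted p 0.284) and -0.05 without control replicate 2. Spred2 was at 102, 104 and 93.9 CPM in control, 112, 109 and 103 CPM with BRD0705, and 98.0, 101 and 97.4 CPM with CHIR. Each of its comparisons with control overlapped, and the edgeR adjusted p was 0.357 for BRD0705 and 0.906 for CHIR.

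The ETS factor genes did not pass in any comparison. On GRCm38, as for the positions above, Etv4 lies on chromosome 11 from 101769747 to 101785310 and Etv5 on chromosome 16 from 22381313 to 22439570, both on the minus strand. Etv5 was at 608, 577 and 587 CPM in control, 608, 587 and 537 CPM with BRD0705, and 557, 576 and 607 CPM with CHIR. Etv4 was at 149, 140.4 and 146 CPM in control, 156, 148 and 156 CPM with BRD0705, and 138, 152 and 153 CPM with CHIR. No pair of groups was apart for either gene. The 95% intervals of the fold change against control ran from 0.902 to 1.06 for Etv5 and from 0.976 to 1.15 for Etv4 with BRD0705, and from 0.906 to 1.06 and from 0.939 to 1.10 with CHIR. Fold changes inside these bounds are compatible with the values at this depth and spread, and the bounds are not limits of detection. Summed over the 8 members other than Dusp1 and Spry4, the level was 959 to 987 CPM in control, 929 to 998 with BRD0705 and 936 to 992 with CHIR, so the groups overlapped.

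**Figure D3:**
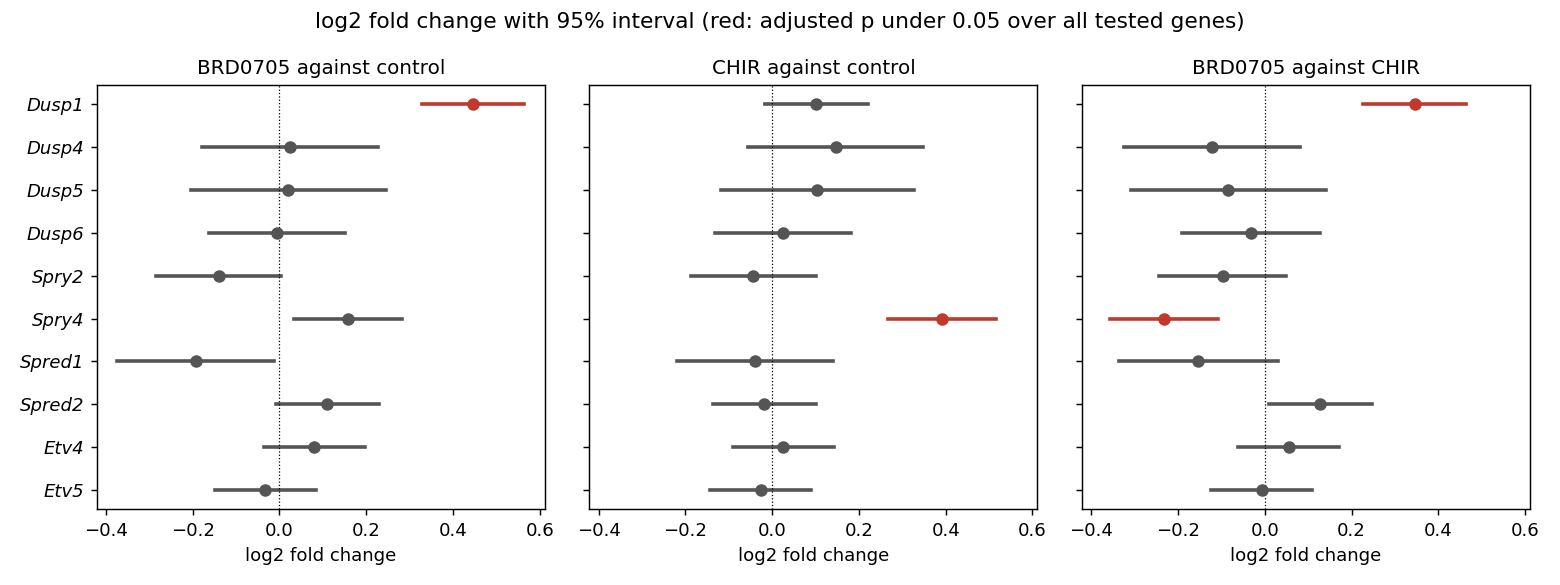
log2 fold change of each member (point) with its 95% interval (line) in the 3 comparisons; red marks an adjusted p under 0.05 over all tested genes. Dusp1 was at 0.45 with BRD0705 and 0.10 with CHIR, Spry4 at 0.16 and 0.39, and the other members lay between -0.19 and 0.15.

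The inhibitors were then compared with each other, since passing in one comparison and not in the other does not show a difference. Dusp1 was higher and Spry4 lower with BRD0705 than with CHIR, 2 members of 10, where 7.77% of all tested genes passed, 4.8% as higher and 2.97% as lower. For Dusp1 the ratio was 1.27-fold, with a 95% interval of 1.17 to 1.38 and an edgeR adjusted p of 0.000992, and it passed in all 22 alternative fits. Spry4 was at 0.851-fold, with a 95% interval of 0.781 to 0.927 and an edgeR adjusted p of 0.0217. It passed in 17 of 22 alternatives. The adjusted p was 0.0778 without BRD0705 replicate 2, 0.0511 without BRD0705 replicate 3 and 0.102 without CHIR replicate 3, and 0.0803 and 0.0799 with limma on the normalized values.

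The level of Dusp1 relative to Spry4 can be read within each library, where no scaling enters. A change in either gene alone would move this ratio. There were 1.47, 1.33 and 1.38 Dusp1 reads per Spry4 read in control, 1.68, 1.69 and 1.74 with BRD0705, and 1.20, 1.15 and 1.08 with CHIR. The 3 groups did not overlap, and the ratio was chosen after the values of both genes had been seen. Of the reads on all 10 members, Dusp1 took 7.70 to 8.36% in control, 10.2 to 11.1% with BRD0705 and 8.25 to 8.69% with CHIR. Spry4 took 5.68 to 5.81%, 6.06 to 6.38% and 7.17 to 7.73% of them.

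**Figure D4:**
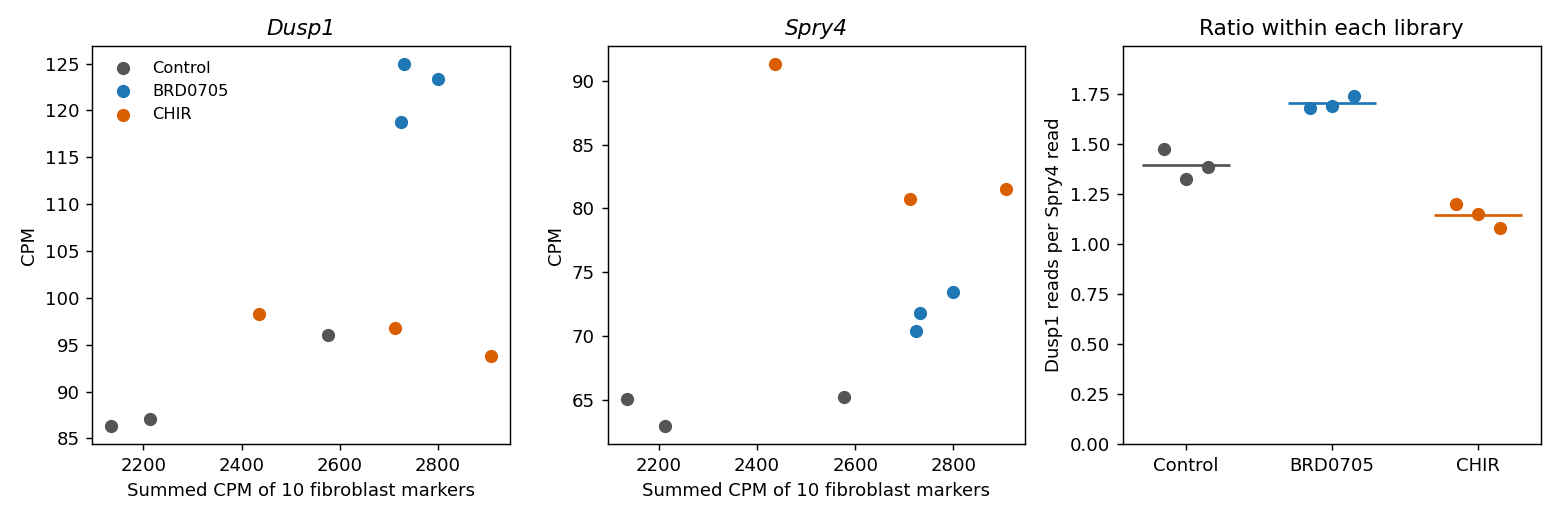
Left and middle, CPM of Dusp1 and of Spry4 against the summed CPM of 10 fibroblast markers in each library, on axes that do not start at 0; right, Dusp1 reads per Spry4 read in each library with the group mean (line). Marker sums ran from 2134 to 2577 CPM in control, 2725 to 2800 with BRD0705 and 2436 to 2907 with CHIR, and the read ratio was 1.68 to 1.74 with BRD0705 and 1.08 to 1.20 with CHIR.

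For the other 8 members the difference between inhibitors did not pass. Spred2 was higher with BRD0705 in every library and Spred1 lower in every library. With Dusp1 and Spry4 this made 4 of 10 members whose groups did not overlap, against 26.7% of all tested genes, 13.7% higher and 12.9% lower. The 95% intervals of the ratio were 1.01 to 1.19 for Spred2 (edgeR adjusted p 0.186) and 0.793 to 1.02 for Spred1 (edgeR adjusted p 0.315). For Dusp6 the interval was 0.877 to 1.09, for Etv4 0.958 to 1.13 and for Etv5 0.918 to 1.08. Dusp4, Dusp5 and Spry2 had intervals from 0.798 to 1.06, 0.808 to 1.10 and 0.845 to 1.03. The doses of the inhibitors are not given in the labels, so these values compare the treatments as applied.

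Family relatives outside the 10 were read in the same way. Of 11 such genes 9 were tested. Dusp2 had at most 3 counts in any library, and the count table has no row under the symbol Spry3. By edgeR 0 of 9 passed against control with either inhibitor, where 1.22% of all tested genes passed with BRD0705 and 6.3% with CHIR. An unadjusted p was under 0.05 for 2 with BRD0705 and 1 with CHIR, beside 2436 and 3148 of all 15366 tested genes. limma voom also called 0 of 9, and DESeq2 called 0 of the 6 and 8 to which it gave an adjusted p. The most abundant relative per length in each family was Dusp9 at 11.4, Spry1 at 1.86, Spred3 at 2.30 and Etv1 at 3.13 CPM per kb. Dusp8, which encodes a phosphatase for p38 and JNK, was lower with BRD0705 than with CHIR, at 10 to 15 against 24 to 35 counts per library, a log2 difference of -1.22 ± 0.31 (SE) with an edgeR adjusted p of 0.0217, and it was the one relative to pass between the inhibitors. Of all tested genes 7.77% passed in that comparison. Dusp8 passed in 18 of 21 alternatives, DESeq2 giving it no adjusted p. The call did not hold without BRD0705 replicate 1, BRD0705 replicate 3 or CHIR replicate 1, where the adjusted p was 0.0816 to 0.0864.

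The pathway upstream of the feedback genes was followed in 34 genes from the FGF ligands to ERK and its kinase targets, all of them tested. With BRD0705 0 of 34 passed by edgeR, where 1.22% of all tested genes passed. An unadjusted p was under 0.05 for 5 of the 34, and for 2436 of all 15366 tested genes. limma voom also called 0 of 34, and DESeq2 called 0 of the 26 to which it gave an adjusted p. With CHIR 1 of 34 passed, lower, where 6.3% of all tested genes passed, 3.78% as lower. Between the inhibitors 3 of 34 passed, 1 higher and 2 lower with BRD0705. There 7.77% of all tested genes passed, 4.8% as higher and 2.97% as lower. The median log2 fold changes of the 34 were 0.03, 0.02 and 0.01 in the order of the comparisons above. Ksr1, whose product is a scaffold that holds Raf, MEK and ERK together, fell with CHIR. It stood at 21.9 to 22.9 CPM in control and 16.1 to 19.1 CPM with CHIR, a log2 difference of -0.36 ± 0.08 (SE) with an edgeR adjusted p of 0.0109. The adjusted p was 0.0649 without CHIR replicate 1, 0.0809 with the fibroblast covariate, and 0.0591 and 0.0606 with limma on the normalized values. With BRD0705 Ksr1 was at 24.0 to 26.8 CPM, above every other library. Its log2 difference from CHIR was 0.56 ± 0.08 (SE), with an edgeR adjusted p of 0.000303, and passed in all 22 alternatives. Ptpn11, which encodes the phosphatase that links receptors to Ras, was lower under BRD0705 than under CHIR. Its log2 difference was -0.23 ± 0.06 (SE), edgeR adjusted p 0.0230, and passed in 15 of 22 alternatives. The adjusted p was 0.108 and 0.0533 without BRD0705 replicates 1 and 2, and 0.0736 and 0.0697 without CHIR replicates 1 and 2.

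Early genes that respond to ERK among other signals were read from a list of 16, of which 14 were tested. With BRD0705 2 of the 14 passed, Fosl1 and Junb, both higher, where 1.22% of all tested genes passed. With CHIR 6 of the 14 passed, Egr1, Fosl1, Junb, Ier2 and Ier3 higher and Myc lower, where 6.3% of all tested genes passed. The median log2 fold change of the 14 was 0.13 for each inhibitor, beside 0.02 and 0.03 for the feedback genes and -0.00380 and -0.00907 for all tested genes. Both comparisons use the same control libraries, and the difference between the lists was not tested.

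Egr1, a zinc finger factor gene induced by ERK, was at 3.45 to 4.63 CPM in control, 4.84 to 6.21 CPM with BRD0705 and 6.83 to 7.88 CPM with CHIR. Fosl1, an AP-1 subunit gene, was at 13.3 to 15.9 CPM in control, 18.6 to 23.0 CPM with BRD0705 and 24.0 to 25.2 CPM with CHIR. Its edgeR adjusted p against control was 0.0192 for BRD0705, past the threshold in 16 of 22 alternatives, and 7.69e-05 for CHIR, past it in 22 of 22. Without control replicate 2, control replicate 3 or BRD0705 replicate 1 the BRD0705 value was 0.109, 0.0811 and 0.143. Junb, another AP-1 subunit gene, was at 37.1 to 37.8 CPM in control, 45.2 to 49.0 CPM with BRD0705 and 44.0 to 51.5 CPM with CHIR. Its BRD0705 call (edgeR adjusted p 0.0241) held in 13 of 22 alternatives and did not hold after the GC and length correction, at 0.112, or without control replicate 2 or 3 or BRD0705 replicate 1 or 2, at 0.0657 to 0.0884. With the fibroblast covariate the CHIR calls of Egr1, Ier2 and Junb had edgeR adjusted p-values of 0.0562, 0.122 and 0.103, and the BRD0705 calls of Fosl1 and Junb 0.596 and 0.622. With that covariate 0 of all tested genes passed for BRD0705 against control. As all BRD0705 marker sums lay above all control sums, that covariate and BRD0705 treatment cannot be fully told apart. The part of the fibroblast signal in these calls was not tested further.

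Between the inhibitors 4 of the 14 early genes passed, Myc higher with BRD0705 and Ier3, Mcl1 and Ier2 lower. Of all tested genes 7.77% passed there, 4.8% as higher and 2.97% as lower. Ier3, an early response gene, was at 89.6 to 92.7 CPM in control, 89.8 to 100.1 CPM with BRD0705 and 111 to 125 CPM with CHIR. Its log2 difference between the inhibitors was -0.31 ± 0.06 (SE), with an edgeR adjusted p of 0.00343, and passed in 22 of 22 alternatives. Myc, the growth factor-responsive transcription factor gene, was at 46.7 to 48.3 CPM with CHIR, 51.2 to 60.3 CPM in control and 62.3 to 72.5 CPM with BRD0705. Its log2 difference was 0.47 ± 0.07 (SE), with an edgeR adjusted p of 0.000571, and passed in 22 of 22, whereas its fall with CHIR against control (edgeR adjusted p 0.0476) held in 9 of 22, 2 of them among the 9 that leave a library out. Mcl1, which encodes a survival protein, and Ier2 passed at edgeR adjusted p-values of 0.0238 and 0.0425, and held in 5 and 1 of those 9.

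**Figure D5:**
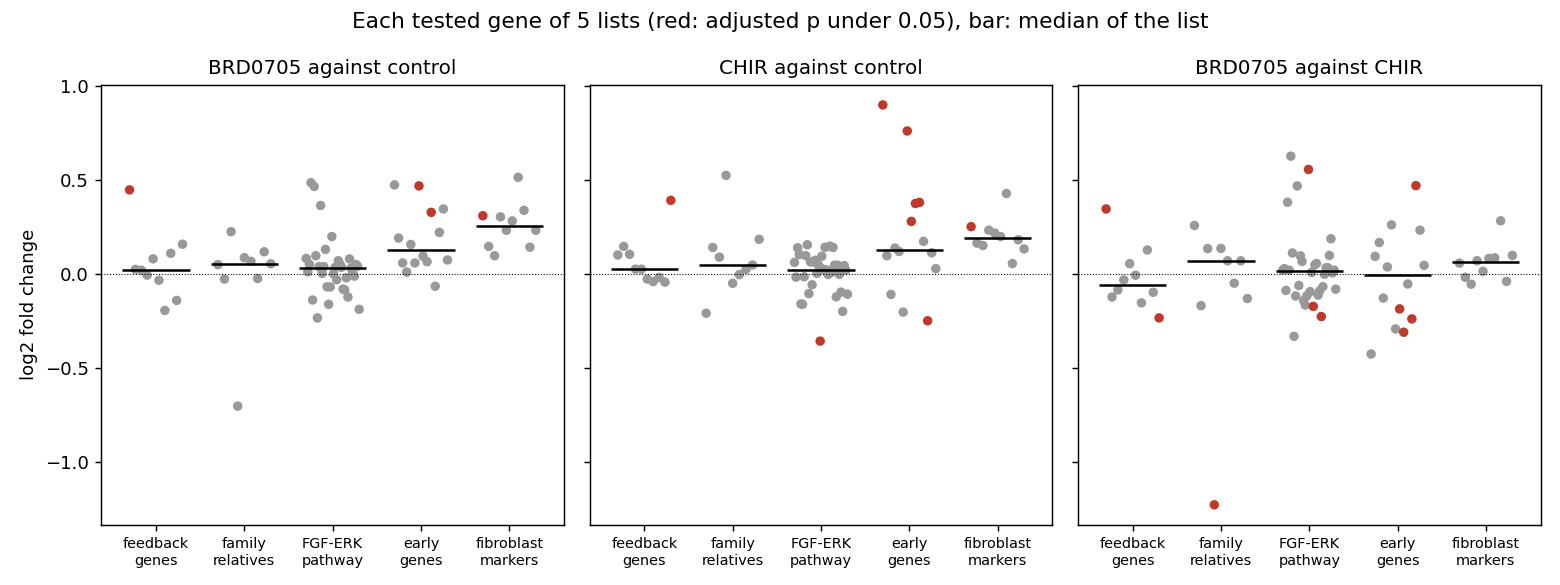
log2 fold change of each tested gene of 5 lists (points; red, adjusted p under 0.05 over all tested genes; bar, median of the list) in the 3 comparisons. The feedback genes have 1, 1 and 2 red points, the early genes 2, 6 and 4, and the fibroblast markers lie above 0 in both comparisons with control.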

How the data were processed

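The authors deposited whole-number read counts per gene symbol for 9 libraries, and a second table of the same counts divided by 1 factor per library, used here as a normalized signal in an alternative. The submitters' processing notes name RSEM, DESeq2 and the build mm10, with no role or version, so the counts may be rounded estimates. Annotation and strand are not given in the sources used here. Libraries were made with ribosomal RNA depletion per the labels' protocols, while the molecule label says polyA RNA, and the series design and sample protocols name different extraction kits.

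edgeR 4.0.16 in R 4.3.3 was used for the main test: filterByExpr by group (minimum count 10), TMM scaling, and a 2-sided quasi-likelihood test in which the 9 libraries shared 1 fit of 3 group means, with Benjamini-Hochberg adjustment over 15366 genes and a threshold of 0.05. Standard errors and 95% intervals were derived from fold changes and F statistics. Log2 CPM used a prior count of 2. The code was tested on simulated data.

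Exon lengths and overlaps came from GENCODE on GRCm39, used without its coordinates. Gene positions came from the RefSeq GRCm38 table. GC content and length were known for 98.5% of the tested genes. Alternatives were the replicate block, DESeq2 1.42.0, limma 3.58.1 (voom, or the deposited normalized values as log2 of value plus 1 or 0.1), other scalings and filters, only the groups compared, a fibroblast marker covariate, a GC and length correction (splines with 5 degrees of freedom), and each library left out.

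Named genes were all 10 members, family relatives that passed the threshold or were most abundant per length in their family, members of the pathway and early gene lists that passed (up to 6 per comparison), and the 3 genes most like Dusp1 and Dusp6. A pathway gene that passed is not reported here. The members and lists were chosen with earlier results of these data known.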

Additional observations from a re-analysis of the deposited data

How the results depend on the processing

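Of 659 alternative results for the 10 members over 22 settings, 651 kept their side of the threshold, 8 lost the call and 0 gained it; DESeq2 gave Dusp5 no adjusted p for BRD0705 against control. With the replicate block 1, 1 and 2 members passed for BRD0705 against control, CHIR against control and BRD0705 against CHIR, and 222, 973 and 1177 genes in all. Deviations of same-numbered libraries had a mean correlation of -0.00119 (-0.0897 to 0.0802). No signal shared by replicate number was seen, which cannot show whether the libraries were paired. No member's call changed with the replicate block. For BRD0705 against control, where 188 genes passed, the count was 474 with DESeq2, 609 with no low-count filter, 120 with the GC and length correction with replicate block, and 0 with the fibroblast covariate (1202 at an unadjusted p under 0.05). With limma on the normalized values it was 0 at both pseudocounts. Members past the threshold went from 1 to 0 with the covariate and with limma. There 2 members had an unadjusted p under 0.05, beside 2005 and 2002 of all tested genes with limma at pseudocounts of 1 and 0.1. For CHIR against control, where 968 genes passed, the count was 231 with the covariate and 428 and 424 with limma at pseudocounts of 1 and 0.1. Between inhibitors, where 1194 passed, limma gave 590 and 579, and 1 member in place of 2.

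Leaving out 1 library gave 21 to 305 genes for BRD0705 against control, over 1.5 times away without any BRD0705 or control library or CHIR replicate 2. The range was 514 to 1070 for CHIR against control (over 1.5 times away without control replicate 2 or 3 or CHIR replicate 1 or 2) and 616 to 1313 between inhibitors (BRD0705 replicate 1 or 2, CHIR replicate 1 or 2). Members past the threshold were 1 to 2 between inhibitors and 1 in each other fit. Library size alone as scaling moved the share of calls that were higher from 39.98 to 26.4% for CHIR against control and from 61.8 to 79.2% between inhibitors (54.1% for CHIR with DESeq2, 73.1 and 72.9% between inhibitors with limma on the normalized values); it moved the median of all genes by at most 0.03. The cause of these shifts was not tested.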

Other observations

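Among the 8 stem cell markers, 2 passed with CHIR against control by edgeR, both higher. Of all tested genes 6.3% passed there, 2.52% as higher. Esrrb, a naive pluripotency factor gene, had a log2 difference of 0.22 ± 0.05 (SE; adjusted p 0.00734), and Klf4 of 0.19 ± 0.05 (SE; adjusted p 0.0369). Both were also lower with BRD0705 than with CHIR, Klf4 by -0.35 ± 0.05 (SE; adjusted p 0.000660) and Esrrb by -0.15 ± 0.05 (SE; adjusted p 0.0474). Between the inhibitors 7.77% of all tested genes passed, 2.97% as lower. With BRD0705 against control 0 of the 8 passed by edgeR, where 1.22% of all tested genes passed. An unadjusted p was under 0.05 for 2 of the 8, and for 2436 of all 15366 tested genes. These genes were chosen after their values were seen, and their calls were not followed through the alternative fits.

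The genes outside all lists whose log2 CPM followed Dusp1 most closely over the 9 libraries, among 9491 genes whose mean log2 CPM was 3 or more, were Tcf3 (Pearson 0.963), Cbx6 (0.963) and Map7d1 (0.950). For Dusp6 they were Uchl5 (0.947), Asb1 (0.908) and Lrpprc (0.897). These are descriptions over libraries that share groups and depth, picked as the highest of many.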
